A study of Mus musculus with 6 samples.

Results

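The mitochondrial genome transcripts are the 13 rows of the deposited table whose chromosome is given as chrMT, out of 35275 gene rows in all. The 13 rows are the protein coding genes of the mitochondrial genome, 12 on the plus strand and mt-Nd6 on the minus strand, and 0 rows of mitochondrial rRNA or tRNA are among them. Bulk RNA sequencing of tongue tissue gave 6 libraries, 3 of mice without Aim2 (Aim2 KO) and 3 of wild type mice. The Aim2 protein senses double-stranded DNA in the cytosol and nucleates an inflammasome. Both groups, controls included, had received 4NQO (4-nitroquinoline 1-oxide, a DNA-damaging carcinogen of the oral epithelium) at 100 µg/ml in drinking water over 20 weeks, so the comparison holds no untreated tongue. The sources used here do not give strain, age, sex or the exons that the knockout removes. They also do not say whether libraries are of separate mice, so the spread of these libraries, on which the p-values draw, may be technical.

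The mitochondrial genome is a small circular DNA present in many copies per cell. Both of its strands are transcribed into long precursors that span many genes, and the mRNAs are released when the tRNAs between them are cut out. The mRNAs encode core subunits of the respiratory chain complexes I, III and IV and of ATP synthase, whose other subunits come from nuclear genes. Skeletal muscle, which makes up much of the tongue, is rich in mitochondria. Nuclear chromosomes also carry fragments copied from mitochondrial DNA, known as nuclear mitochondrial segments, and these can resemble the mitochondrial genes closely.

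The libraries held between 21959204 and 25369400 reads, as recovered from the deposited FPKM values (fragments counted per gene, scaled by gene length and by the library's total). The targeted gene was low in both groups and lower in each Aim2 KO library, with 3 to 10 reads of Aim2 per library against 14 to 30 in wild type. Markers of tongue muscle and epithelium were abundant. The 12 skeletal muscle markers were all tested and summed to between 9455 and 18742 FPKM, and the 10 keratinocyte markers, all tested, summed to between 32601 and 42630 FPKM.

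The transcripts of the mitochondrial genome fell into 2 sets of very unequal level in every library. The levels named here are per length, in FPKM, as mean ± SD over the 6 libraries. mt-Co1, which encodes the catalytic subunit I of cytochrome c oxidase (complex IV), was at 16202 ± 2000 FPKM (SD, n = 6). By this mean it was the most abundant of all 35275 rows. The keratinocyte marker Krt13, at a mean of 15408 FPKM, was above it in Aim2 KO replicate 1 and wild type replicate 1 and below it in the other libraries. mt-Nd1, a complex I subunit, followed at 7554 ± 826 FPKM and mt-Cytb, the cytochrome b of complex III, at 7124 ± 1043 FPKM. The complex I genes mt-Nd2, mt-Nd4, mt-Nd5 and mt-Nd6 were at 4216 ± 720, 2629 ± 427, 2534 ± 450 and 2388 ± 419 FPKM.

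The other 6 members were far below, a split made after these levels were seen. mt-Co3 and mt-Co2, which encode subunits III and II of complex IV, were at 63.3 ± 10.2 and 62.0 ± 7.35 FPKM, and mt-Atp6, a membrane subunit of ATP synthase, was at 55.7 ± 6.60 FPKM. The complex I genes mt-Nd3 and mt-Nd4l were at 38.6 ± 6.65 and 6.68 ± 0.950 FPKM. mt-Atp8, a small ATP synthase subunit, was listed at 0 in 5 libraries and at 0.446 FPKM, from 2 reads, in Aim2 KO replicate 3. The step between mt-Nd6, the lowest of the first 7, and mt-Co3, the highest of the last 6, was 37.7-fold by means over the 6 libraries. Together the 6 low members gave 0.254% to 0.278% of the mitochondrial reads of a library.

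Not every neighbour in this order was separated. mt-Co1 lay above mt-Nd1 in 6 of 6 libraries with no overlap of their ranges, and mt-Cytb likewise lay above mt-Nd2. mt-Nd1 exceeded mt-Cytb in 5 of 6 libraries, by 1.06-fold in the mean, with overlapping ranges. mt-Nd4 exceeded mt-Nd5 in 4 of 6 libraries, and mt-Nd5 exceeded mt-Nd6 in 4 of 6, so the order of these 3 did not hold beyond the spread. mt-Co3 and mt-Co2 also changed places, with mt-Co3 higher in 4 of 6 libraries. mt-Nd4l was below mt-Nd3 in every library by a wide margin, 5.78-fold in the mean, although both encode subunits of the same complex.

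**Figure D1:**
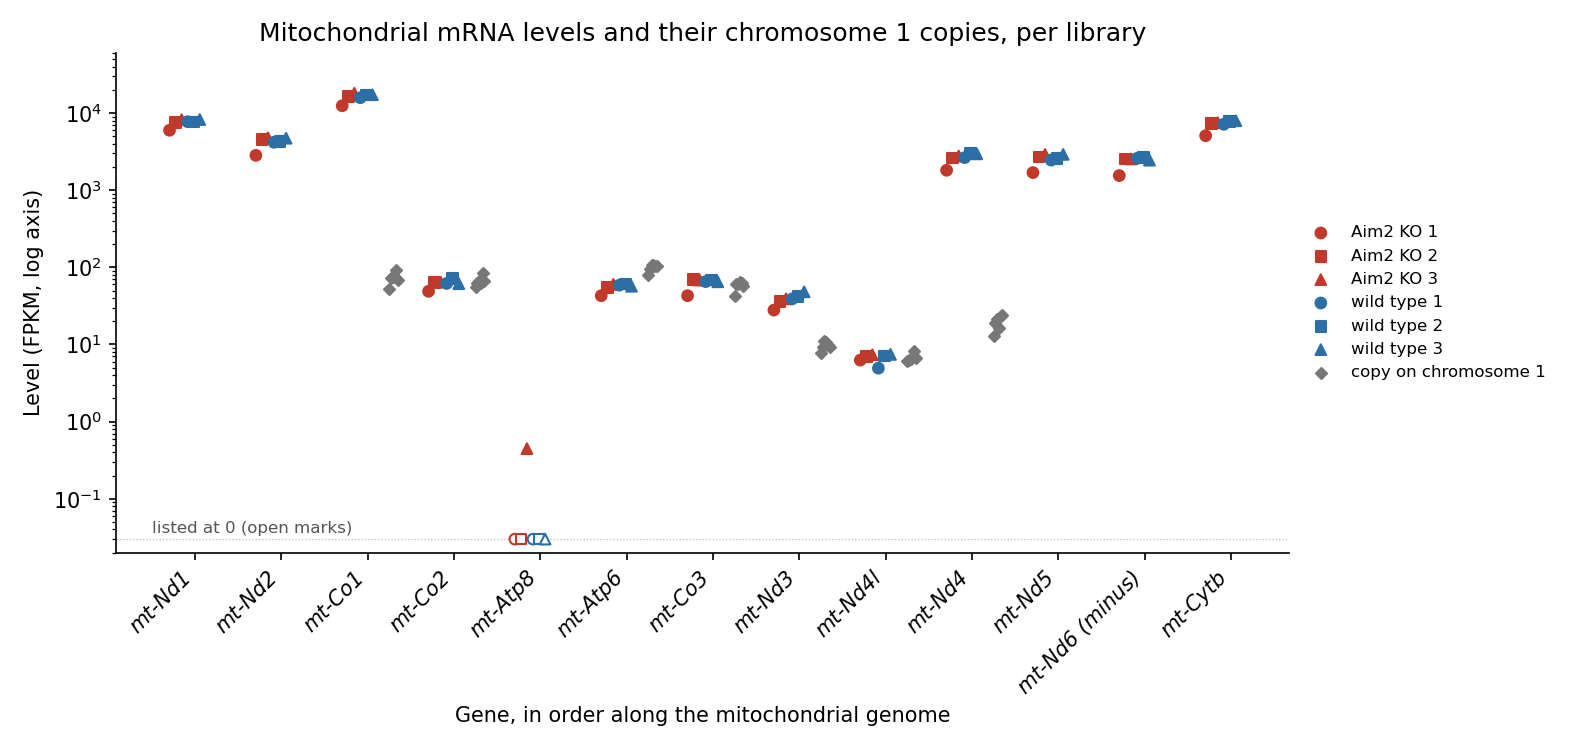
Level of each mitochondrial gene in each library (y axis, FPKM on a log axis) in the order of the genes along the mitochondrial genome (x axis), with red marks for Aim2 KO, blue marks for wild type, a mark shape for each replicate and grey diamonds for the nuclear copy on chromosome 1. The 6 low genes sit together between mt-Co1 and mt-Nd4, mt-Co2, mt-Co3 and mt-Nd4l close to the level of their copies, and mt-Atp8 is listed at 0 in 5 libraries (open marks on the dotted line).

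The 6 low members were neighbours on the genome. In the coordinates of the deposited table, read as GRCm38, they ran from the start of mt-Co2 at base 7013 to the end of mt-Nd4l at base 10173 of chrMT, with no high member between them. mt-Nd1 (2751 to 3707), mt-Nd2 (3914 to 4951) and mt-Co1 (5328 to 6872) preceded them, and mt-Nd4 (10167 to 11544), mt-Nd5 (11742 to 13565), mt-Nd6 (13552 to 14070) and mt-Cytb (14145 to 15288) followed them. Each row spans the whole gene, which has no introns. Members overlapped in 4 places: mt-Atp8 and mt-Atp6 share 43 bases, mt-Nd4l and mt-Nd4 share 7 and mt-Atp6 and mt-Co3 share 1, while mt-Nd5 and mt-Nd6 share 14 bases on opposite strands. How reads over such bases were assigned, and whether the counting used strand, is not given in the sources used here.

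The same stretch has a counterpart in the nuclear genome that the deposited table lists as separate rows. Chromosome 1 holds 7 pseudogenes between 24611535 and 24616197 on the minus strand, each the best match of a different mitochondrial gene among the 13. All 7 have the same ID and coordinates in GENCODE M21, whose names are used here since the table gives 6 of them clone names only. Gm29216 matched the last 483 bases of mt-Co1, then Gm28661 matched mt-Co2, Gm10925 mt-Atp6, Gm28437 mt-Co3, Gm28438 mt-Nd3 and Gm10222 mt-Nd4l, and Gm28439 matched the first 876 bases of mt-Nd4. Over 4140 aligned bases of GENCODE M21 transcripts there were 2 mismatches and 0 gaps, and 5 of the 7 copies had no mismatch. The alignment was local and began at base 10 of Gm29216, so letters that differ before that base are not counted. Substitutions are written with the mitochondrial base first, the position counted from 1 at the start of the mitochondrial gene, then the base of the copy. The 2 mismatches were A1066T in mt-Co1 and T3C in mt-Nd3.

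The opening bases of mt-Co2 and of its copy are shown first because no letter separates them, so a read from here matches both places equally. They lie at chrMT:7013-7072 on the plus strand and chr1:24615506-24615565 on the minus strand of GRCm38, and each sequence is printed 5′ to 3′ as transcribed.
mt-Co2 bases 1 to 60: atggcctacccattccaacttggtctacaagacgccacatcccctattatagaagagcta
Gm28661 bases 1 to 60: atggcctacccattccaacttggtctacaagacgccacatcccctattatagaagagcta
The start of mt-Nd3 holds the single difference between that gene and its copy, shown in a capital at the third base (chrMT:9459-9518, plus strand, and chr1:24613060-24613119, minus strand).
mt-Nd3 bases 1 to 60: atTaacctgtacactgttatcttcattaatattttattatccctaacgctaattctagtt
Gm28438 bases 1 to 60: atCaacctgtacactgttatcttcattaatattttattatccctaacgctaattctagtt
The 2 ends of the copied stretch fall inside mt-Co1 and mt-Nd4. At the first end, capitals mark the letters that differ between mt-Co1 and the opening of Gm29216 (chrMT:6381-6440, plus strand, and chr1:24616138-24616197, minus strand).
mt-Co1 bases 1054 to 1113: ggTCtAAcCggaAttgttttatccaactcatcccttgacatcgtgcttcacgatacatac
Gm29216 bases 1 to 60: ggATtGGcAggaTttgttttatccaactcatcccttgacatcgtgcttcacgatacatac
At the other end, capitals mark the bases of mt-Nd4 that lie beyond the end of the annotated copy (chrMT:11013-11072, plus strand, and chr1:24611535-24611564, minus strand).
mt-Nd4 bases 847 to 906: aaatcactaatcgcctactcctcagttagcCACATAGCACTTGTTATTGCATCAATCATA
Gm28439 bases 847 to 876: aaatcactaatcgcctactcctcagttagc

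Exact sharing was counted over the whole of each gene. Of the 50-base windows of mt-Co2, 100% occur letter for letter in a nuclear transcript of GENCODE M21 on either strand, and for mt-Co3, mt-Atp6, mt-Nd4l and mt-Nd3 the share was 99.9%, 99.5%, 98.8% and 98.0%. With windows of 150 bases these 5 genes still shared 97.0% to 99.8% of their windows. Of mt-Nd4 62.2% was shared at 50 bases and of mt-Co1 51.1%, the latter also with nuclear fragments other than that on chromosome 1, so that at 150 bases its share was 23.6%. mt-Nd2 shared 8.19% and mt-Nd5 7.61% at 50 bases, and 0% each at 150 bases. mt-Nd1, mt-Nd6 and mt-Cytb shared 0% at every window length. Thus 5 of the 6 low members, and 0 of the 7 high members, were shared over nearly their whole length. The sources used here do not give the read length, the aligner or the handling of reads with several matches, so the part of shared reads in the low levels was not tested.

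**Figure D2:**
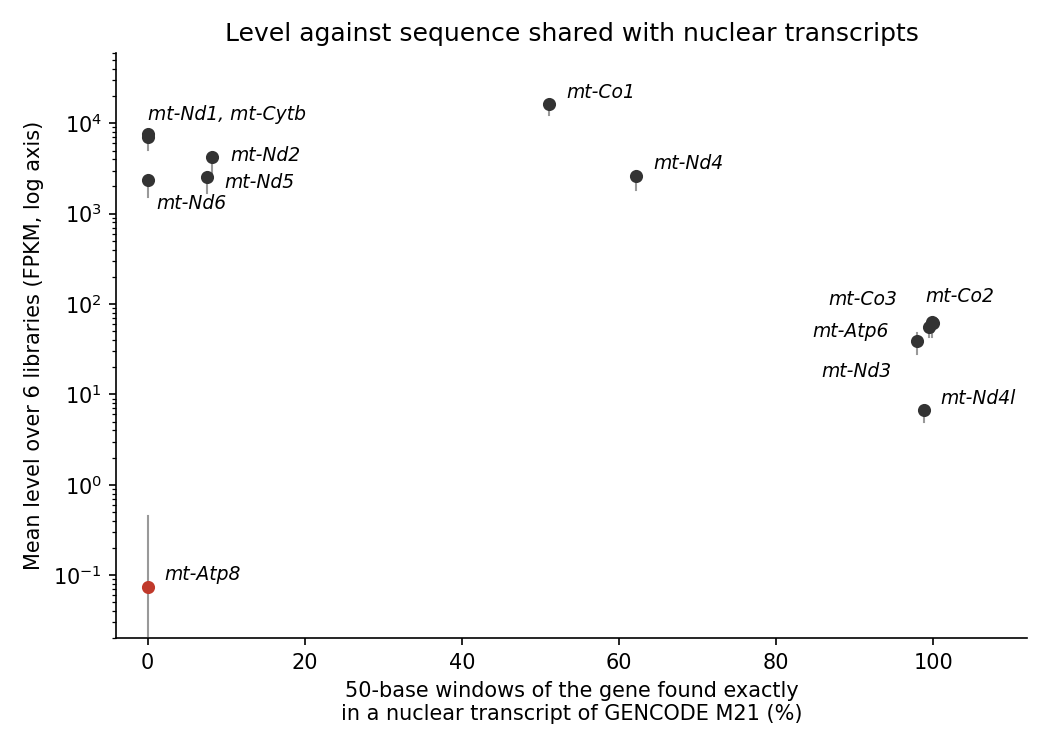
Mean level of each mitochondrial gene over the 6 libraries (y axis, FPKM on a log axis, with a line from the lowest to the highest library) against the percentage of its 50-base windows found in a nuclear transcript (x axis). The 5 genes at 98.0% to 100% lie between 6.68 and 63.3 FPKM, the 7 genes at 0% to 62.2% that were high lie between 2388 and 16202 FPKM, and mt-Atp8 (red) is at 0% with the lowest level.

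By the window count mt-Atp8 stands outside this pattern, being low with 0% of its windows in an annotated nuclear transcript. Its last 43 bases, shared with mt-Atp6, do lie in Gm10925, which matches mt-Atp6 from base 1 without a mismatch. They are fewer than the shortest window searched, so the count cannot register them. mt-Atp8 lies between mt-Co2 and mt-Atp6. The copies of those 2 genes on chromosome 1 leave 233 bases between them where the mitochondrial genes leave 230. Gm28661, the copy of mt-Co2, ends 3 bases short of that gene, which accounts for this difference. No pseudogene row covers those 233 bases and their sequence was not used here, so whether they match mt-Atp8 was not tested. The sequence of mt-Atp8, 204 bases, is shown because it is the shortest member (chrMT:7766-7969, plus strand). Its end, in capitals, is also the start of mt-Atp6.
mt-Atp8 bases 1 to 204: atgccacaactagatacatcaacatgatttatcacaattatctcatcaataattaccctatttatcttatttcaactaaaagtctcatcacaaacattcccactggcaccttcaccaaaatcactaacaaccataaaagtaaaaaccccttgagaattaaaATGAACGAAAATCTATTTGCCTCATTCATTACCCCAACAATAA
A count of 0 reads allows up to 3 reads, or 0.580 to 0.652 FPKM for this length in the 5 libraries listed at 0, counting error only.

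The copies were themselves measured, and at levels near those of the low members. mt-Co2 was at 48.9, 64.2 and 64.2 FPKM in Aim2 KO replicates 1 to 3 and at 61.9, 71.4 and 61.4 FPKM in wild type replicates 1 to 3. Its identical copy Gm28661 was at 55.2, 63.6 and 67.1 FPKM and at 62.1, 84.8 and 66.3 FPKM. Member and copy thus stood within a ratio of 0.842 to 1.01 of each other in every library. mt-Co3 was 1.01 to 1.15 times Gm28437, mt-Nd4l was 0.727 to 1.13 times Gm10222 on 36 to 56 reads per library, and mt-Atp6 was 0.540 to 0.590 times Gm10925. mt-Nd3 stood apart, at 3.48 to 5.20 times Gm28438. The cause of the unequal ratios was not tested.

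For the genes copied in part the member was far above the copy. mt-Co1 was 189 to 249 times Gm29216 and mt-Nd4 was 121 to 160 times Gm28439. The level of mt-Nd4 depends on which of its bases could be counted. Over all 1378 bases it was at 2629 ± 427 FPKM, near mt-Nd5, and if all its reads are set against the 502 bases outside the copied part it is at 7217 ± 1171 FPKM, near mt-Nd1 and mt-Cytb. The same step for mt-Co1, over the 1062 bases left, gives 23570 ± 2909 FPKM. That step leaves out only the part copied on chromosome 1. Of the 1545 bases of mt-Co1, 1157 lie in 50-base windows shared with some nuclear transcript, and a level over the other 388 was not computed. The levels of all members with a copy, and of the copies, are therefore uncertain when genes are compared with each other.

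The comparison of the genotypes asks whether mitochondrial transcripts differ in carcinogen-exposed tongues when Aim2 is absent. None of them passed the test, and 1 Aim2 KO library, replicate 1, was low for nearly all of them. In bulk tissue fewer cells of a type and less RNA per cell cannot be told apart. Each difference is the Aim2 KO mean less the wild type mean of log2(FPKM + 1), a scale that understates changes of low genes. A gene passed at an adjusted p under 0.05 by limma, with Benjamini-Hochberg adjustment over the 12144 genes whose mean reached 1 FPKM. Of the 13 members 12 were tested, mt-Atp8 falling below 1 FPKM. At the threshold 0 of 12 passed, against 0.00823% of all genes tested, and at an unadjusted p under 0.05 also 0 of 12, against 2.5% of all genes. Their adjusted p was 0.9998 each. limma's voom on the recovered reads called 0 of 12 as well.

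mt-Co1 was at 12423, 16485 and 18031 FPKM in Aim2 KO replicates 1 to 3 and at 15805, 17192 and 17274 FPKM in wild type replicates 1 to 3. Aim2 KO held both the lowest and the highest library, and the groups overlapped. The log2 difference was -0.12 (SE 0.35, limma adjusted p = 0.9998).

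mt-Cytb, the mitochondrial gene of complex III, was at 5079, 7317 and 7503 FPKM in Aim2 KO and at 7146, 7763 and 7938 FPKM in wild type. Here the Aim2 KO libraries other than replicate 1 fell among the wild type libraries. Its log2 difference was -0.22 (SE 0.29).

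Among the complex I genes, mt-Nd1 was at 5980, 7495 and 8208 FPKM in Aim2 KO and at 7721, 7689 and 8232 FPKM in wild type. mt-Nd2 was at 2827, 4529 and 4774 FPKM against 4174, 4284 and 4710 FPKM. In mt-Nd2 both other Aim2 KO libraries were above wild type replicates 1 and 2, while replicate 1 was below them all. mt-Nd4 was at 1811, 2626 and 2771 FPKM against 2645, 2967 and 2956 FPKM. mt-Nd5 was at 1691, 2680 and 2903 FPKM against 2455, 2571 and 2906 FPKM. The log2 differences of these 4 genes were -0.14 (SE 0.28), -0.15 (SE 0.28), -0.27 (SE 0.24) and -0.16 (SE 0.27), each smaller than or close to its error.

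mt-Nd6 is the only mRNA of the set read from the opposite strand, so it comes from the other precursor. It was at 1547, 2527 and 2540 FPKM in Aim2 KO and at 2596, 2668 and 2449 FPKM in wild type, with a log2 difference of -0.26 (SE 0.26). Relative to mt-Nd5, which it meets end to end, its level was 0.915, 0.943 and 0.875 in Aim2 KO and 1.06, 1.04 and 0.843 in wild type. The lowest ratio was that of wild type replicate 3, so the groups overlapped. The mean ratio was 0.911 ± 0.0341 against 0.979 ± 0.119 (SD, n = 3 per group; exact permutation test on log2 ratios, two-sided, p = 0.4, where 0.1 is the smallest possible). The mt-Nd6 to mt-Nd5 ratio therefore differed between the genotypes by less than the spread of the wild type libraries. It stands for the ratio of the strands only if the counting used strand, which is not given in the sources used here.

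The low members gave the same picture on far fewer reads. mt-Nd3 was at 27.9, 36.0 and 39.0 FPKM in Aim2 KO and at 38.9, 41.6 and 48.1 FPKM in wild type, on 219 to 425 reads per library. Its groups overlapped by a hair, since Aim2 KO replicate 3 lay just above wild type replicate 1, and its log2 difference of -0.32 (SE 0.15, unadjusted p = 0.0652) was the farthest from 0 among the 12. mt-Co3 was at 43.0, 70.0 and 68.3 FPKM against 65.3, 68.4 and 65.0 FPKM, so that the other Aim2 KO libraries were among or above those of wild type. mt-Atp6 was at 42.9, 55.0 and 60.05 FPKM against 58.7, 60.6 and 56.8 FPKM. The log2 differences of mt-Co3, mt-Atp6 and mt-Co2 were -0.16 (SE 0.19), -0.17 (SE 0.14) and -0.14 (SE 0.14).

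mt-Nd4l was the 1 tested member with a positive difference, 0.09 (SE 0.15). It was at 6.27, 7.005 and 7.36 FPKM in Aim2 KO and at 4.93, 7.07 and 7.43 FPKM in wild type, where the lowest library was wild type replicate 1, and without that library its difference was -0.07. Of the 12 tested members 11 had a difference below 0, against 42.8% of all genes tested, and their median was -0.16 against 0.02 over all genes. For 0 of 12 were the groups apart in either direction, against 4.98% of all genes that were higher and 1.48% that were lower in Aim2 KO without overlap. The 7 copies on chromosome 1 all had differences below 0, from -0.26 to -0.07, and 0 of 7 passed. Gm10222 was the copy whose groups did not overlap, at 6.27 ± 0.235 FPKM against 7.25 ± 0.882 FPKM in wild type, on 40 to 59 reads per library.

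**Figure D3:**
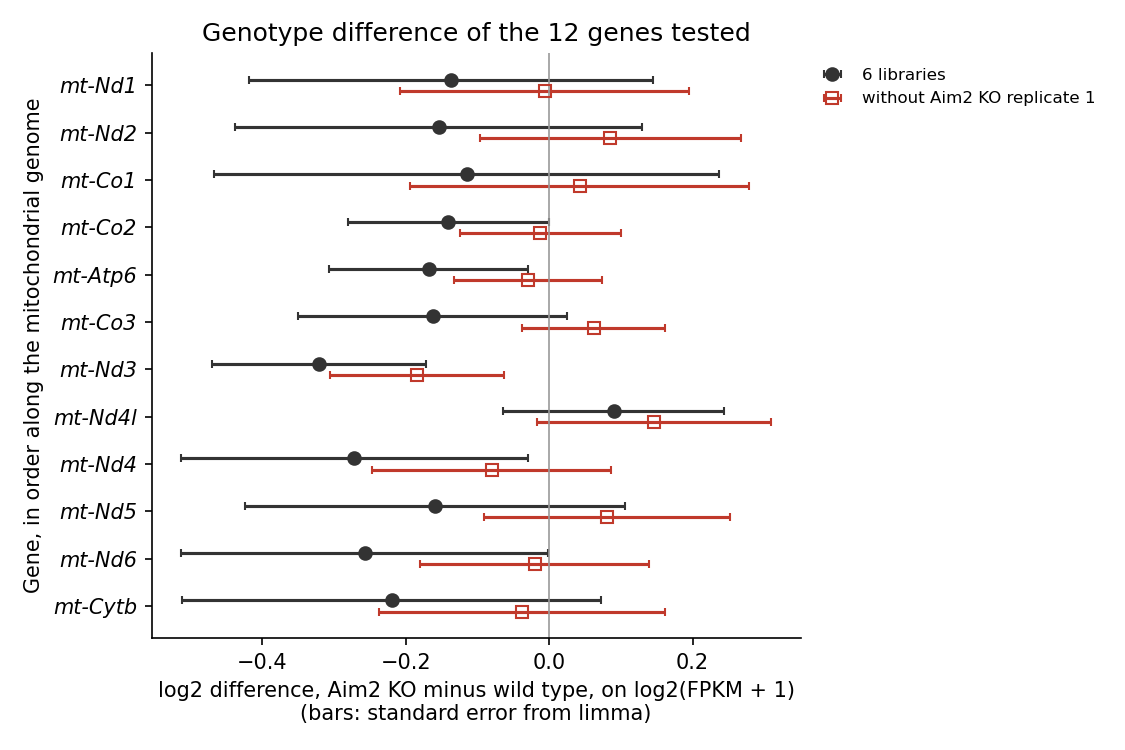
log2 difference between Aim2 KO and wild type (x axis) for the 12 tested genes in genome order (y axis), with all 6 libraries (black) and without Aim2 KO replicate 1 (red, open), and bars for the standard error from limma. With all libraries 11 of 12 points lie below 0, and without that library 5 of 12 lie above 0.

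Much of the shift below 0 came with Aim2 KO replicate 1. This library had the lowest level of all 6 for 11 of the 12 tested members, against 34.2% of all genes tested. It was 11.3% to 39.1% below the median of the other 5 libraries, with mt-Nd6 (39.1%), mt-Nd2 (37.6%) and mt-Co3 (37.1%) the farthest below and mt-Nd4l (11.3%) and mt-Nd1 (22.5%) the nearest. Without it the median difference of the 12 members became -0.01, with mt-Nd3 the farthest from 0 at -0.18. In that fit 5 of 12 were above 0, where 8078 of the 12144 genes tested with all libraries were. Past the threshold were 0 of 12, against 0.115% of all genes in that fit (limma adjusted p from 0.844 to 0.997). Over all genes the median was then 0.06.

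The share of reads from the mitochondrial genome showed the same library apart. It was 4.02%, 5.57% and 5.98% in Aim2 KO replicates 1 to 3 and 5.39%, 5.76% and 5.93% in wild type replicates 1 to 3. The highest share and the lowest were both in Aim2 KO. The means were 5.19% ± 1.04 and 5.69% ± 0.275 (SD, n = 3 per group), a difference of -0.51 percentage points that was smaller than the spread in Aim2 KO. Without Aim2 KO replicate 1 the difference was 0.08 percentage points.

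**Figure D4:**
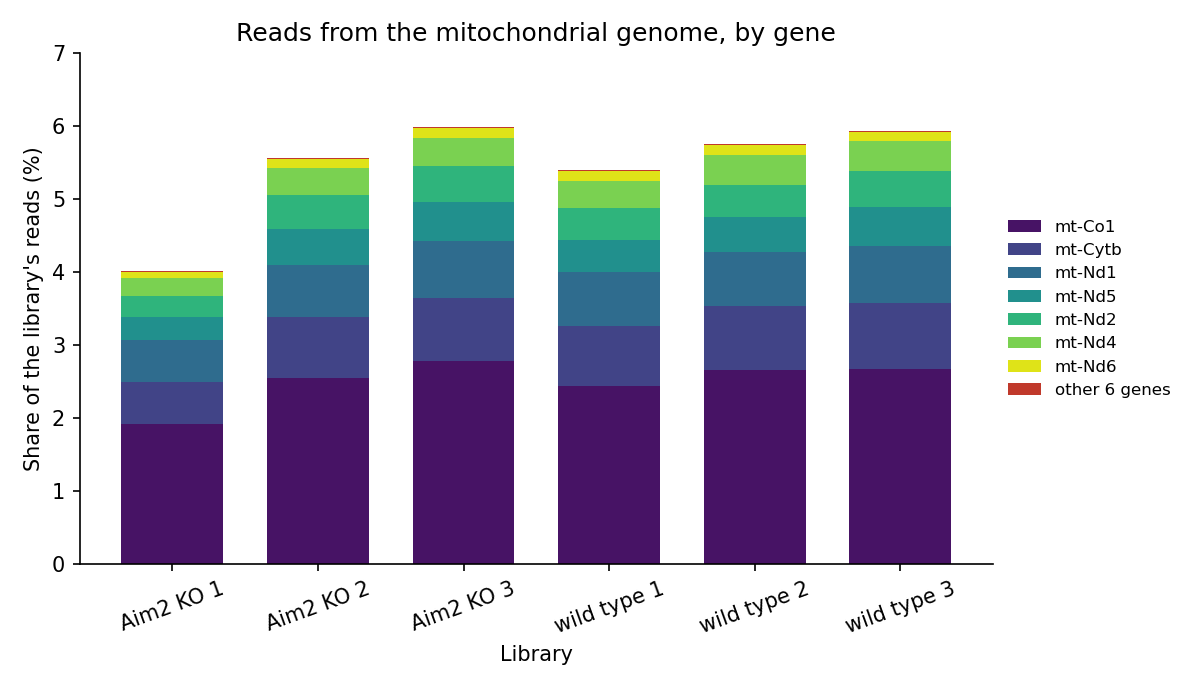
Share of each library's reads that came from the mitochondrial genome (y axis, percent, from 0), stacked by gene, for the 3 Aim2 KO and 3 wild type libraries (x axis). Aim2 KO replicate 1 reaches 4.02% and the other 5 libraries 5.39% to 5.98%, and the 6 low genes form the thin red line on top.

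The make-up of the mitochondrial reads varied less than their total. mt-Co1 gave 44.98% to 47.8% of them, mt-Cytb 14.3% to 15.4% and mt-Nd1 12.8% to 14.3%. mt-Nd5 gave 7.68% to 8.93%, mt-Nd2 7.31% to 8.44%, mt-Nd4 6.22% to 7.10% and mt-Nd6 2.00% to 2.498%. Aim2 KO replicate 1 was at the edge of several of these ranges, with the highest share of mt-Co1 and mt-Nd1 and the lowest of mt-Nd2, mt-Nd4, mt-Nd5 and mt-Nd6. Its ratio of mt-Nd1 to mt-Nd2 was 2.12, where the other 5 libraries lay between 1.65 and 1.85. Within wild type the 12 tested members had a median coefficient of variation of 5.93% over the 3 libraries, against 11.1% for all genes tested. The range ran from 2.84% for mt-Co3 to 20.9% for mt-Nd4l, and mt-Nd3, at 11.1%, was near the median of all genes.

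The share of mt-Nd4 in the mitochondrial reads was lower in each Aim2 KO library than in any wild type library, at 6.37% ± 0.141 against 6.91% ± 0.176, and that of mt-Cytb was too, at 14.6% ± 0.366 against 15.3% ± 0.134. These shares were singled out after their values were seen, out of 7 compared, and are given without a test.

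Markers of tissue components moved with that library. The 12 skeletal muscle markers, among them the actin Acta1, the creatine kinase Ckm and the fast myosin Myh4, were all lowest in Aim2 KO replicate 1. They summed to 9455 FPKM there, to 18216 and 17485 FPKM in the other Aim2 KO libraries and to 15520 to 18742 FPKM in wild type. The 10 keratinocyte markers summed highest in the same library, at 42630 FPKM, against 32601 and 37047 FPKM in the other Aim2 KO libraries and 33115 to 40564 FPKM in wild type. They did not all move so: Krt4 was lowest there, at 4530 FPKM against 5259 to 7069 FPKM in the others. Krt13, at 15334 FPKM there, lay within the range of the others, 14017 to 16390 FPKM. The remaining keratinocyte markers were each highest there. Of the muscle markers 1, Myh1, was lower in Aim2 KO without overlap, against 1.48% of all genes. It was at 467, 554 and 693 FPKM against 717, 966 and 723 FPKM in wild type. Its log2 difference was -0.49 (limma adjusted p = 0.9998), and -0.36 without Aim2 KO replicate 1. The median of the 12 muscle markers was -0.21, and 0.13 without that library. With the muscle level as a covariate the differences of the 12 members lay between -0.25 and 0.13, with 0 of 12 past the threshold. Of 10 oxidative fibre markers 5 were tested, with 1 difference above 0 and 4 below and a median of -0.29, and 4 of the 5 were lowest in Aim2 KO replicate 1. The oxygen carrier myoglobin, Mb, was at 1512 FPKM there and at 2077 to 2886 FPKM in the other libraries, whereas the calcium pump gene Atp2a2 was highest there, at 117 FPKM against 93.8 to 116 FPKM. The 5 untested members were low, the slow myosin Myh7 at 0.0506 to 0.131 FPKM. The 6 fibroblast and the 5 red cell markers were also all lowest in Aim2 KO replicate 1, and of 3 tested adipocyte markers 2 were, while the brown fat marker Ucp1 was at 0 in 3 libraries. The part of tissue make-up in the low mitochondrial level was not tested.

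The 8 leukocyte markers were higher in every Aim2 KO library than in any wild type library, summing to 59.2 to 92.2 FPKM against 32.4 to 37.1 FPKM, against 4.98% of all genes that were higher without overlap. By limma 0 of 8 passed (smallest adjusted p = 0.504), while 8 of 8 had an unadjusted p under 0.05, against 2.5% of all genes. With array quality weights 7 of 8 passed, against 0.56% of all genes. They did not follow the mitochondrial transcripts, since Aim2 KO replicate 1 was above every wild type library for them. The 4 tested salivary gland markers had 3 differences above 0, and 2 of the 4 were lowest in Aim2 KO replicate 1.

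Nuclear genes for the same complexes were compared because they share no transcription unit with the mitochondrial genes. In a list of 84 nuclear subunits of the respiratory chain and ATP synthase 83 matched a row and 81 were tested. Of these 5 had a difference above 0 and 76 below, against 42.8% of all genes below 0, with a median of -0.11, and 0 of 81 passed, by voom on the recovered reads as well, with 0 of 81 at an unadjusted p under 0.05. Complex I had 1 of 35 above 0 with a median of -0.12, led by Ndufs7, an iron-sulfur subunit, at 153 ± 33.2 FPKM against 185 ± 35.9 FPKM. Complex II, which has no mitochondrially encoded subunit, had 0 of 4 above 0 with a median of -0.12, with its flavoprotein gene Sdha at 192 ± 48.8 against 218 ± 26.9 FPKM. Complex III had 0 of 9 above 0 (median -0.09), complex IV 2 of 15 (median -0.14) and ATP synthase 2 of 18 (median -0.07). In complex IV, Cox6a2, a subunit form of heart and skeletal muscle, was at 507 ± 149 against 609 ± 135 FPKM.

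The nuclear subunits did not rank the libraries as the mitochondrial genes did. Their mean log2 level was 6.90 in Aim2 KO replicate 1 and 6.95 in wild type replicate 3, and 7.19 to 7.42 in the other 4 libraries. Wild type replicate 3 was thus low for the nuclear subunits and, at 5.93% of reads, high for the mitochondrial transcripts. Aim2 KO replicate 1 was the lowest library for 44 of the 81 nuclear subunits, against 34.2% of all genes tested. Without it their median difference was -0.0048, where that over all genes was 0.06.

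**Figure D5:**
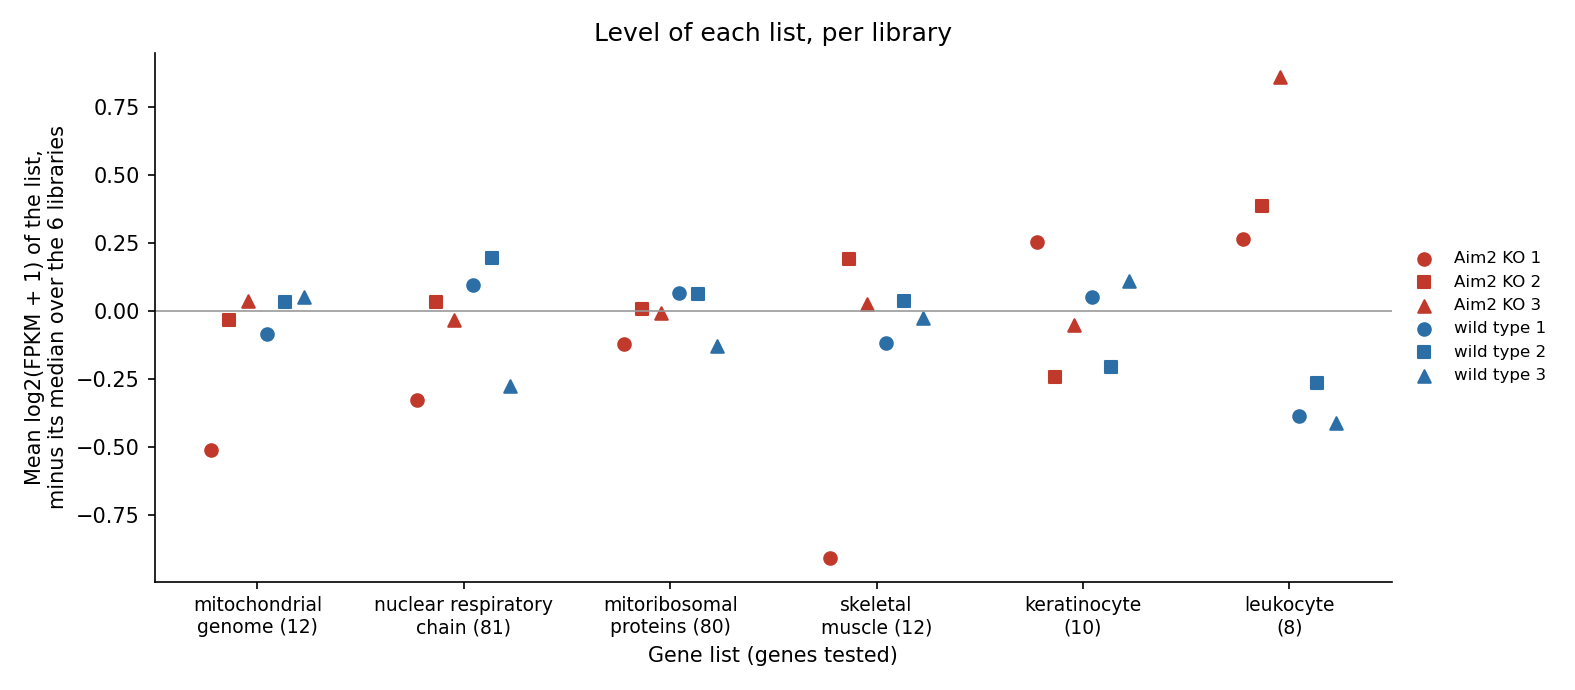
Mean log2(FPKM + 1) of each gene list in each library, minus the median of that list over the 6 libraries (y axis), for 6 lists (x axis, with the number of genes tested), with red marks for Aim2 KO and blue for wild type. Aim2 KO replicate 1 (red circle) is the lowest library for the mitochondrial genome, the nuclear respiratory chain and skeletal muscle, and wild type replicate 3 (blue triangle) is low for the nuclear respiratory chain but not for the mitochondrial genome.

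The nuclear genes that express the mitochondrial genome had differences on both sides of 0, to be read against the 42.8% of all genes with a difference below 0. Of 26 genes of mitochondrial transcription and replication 24 were tested, with 10 differences above 0 and 14 below and a median of -0.03. Those with the smallest p were Lig3, a DNA ligase that also serves mitochondria, at 5.72 ± 0.490 FPKM in Aim2 KO against 4.90 ± 0.441 FPKM, and Slc25a33, a pyrimidine nucleotide carrier, at 4.19 ± 0.551 against 5.53 ± 1.75 FPKM. Of 41 genes of mitochondrial RNA processing and decay, all tested, 22 were above 0 and 19 below, with a median of 0.01. Trmt10c, a subunit of the enzyme that cuts the 5′ ends of mitochondrial tRNAs, was at 7.06 ± 0.062 against 8.08 ± 0.463 FPKM with no overlap of the groups. Nsun3, a methyltransferase of mitochondrial tRNA, was at 4.28 ± 0.289 against 3.77 ± 0.040 FPKM, also with no overlap. Fastkd1, of a family of mitochondrial RNA-binding proteins, was at 3.40 ± 0.696 against 3.97 ± 0.139 FPKM, and Slirp, a partner of Lrpprc that stabilises mitochondrial mRNAs, was at 1.70 ± 0.393 against 1.34 ± 0.167 FPKM. Of 82 mitochondrial ribosomal protein genes 80 were tested, with 31 above 0 and 49 below and a median of -0.04. Mrps34, of the small subunit, was at 8.70 ± 0.255 against 10.2 ± 0.816 FPKM with no overlap. In these 3 lists 0 genes passed (limma adjusted p = 0.9998 each), 0 had an unadjusted p under 0.05, and 2 genes were higher and 4 lower in Aim2 KO with no overlap, where the shares over all genes were 4.98% and 1.48%.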

How the data were processed

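Groups are the genotypes in the labels. Per the file name and header, the authors deposited FPKM values for 35275 genes, 1 column per library, with the gene length and coordinates. Aligner, counter, build and annotation: not given in the sources used here. Each deposited FPKM value times its length was a whole number of reads within 0.01 read for 100% of values above 0, which gave the read counts and totals. FPKM divides by the library total, so abundant genes shift all others, and other scalings were tried. All 13 chrMT rows and all 7 chromosome 1 copies have the same coordinates in GENCODE M21 (GRCm38), whose transcripts supplied the sequences printed. Windows of 50, 100 and 150 bases were searched exactly on both strands, and copies were aligned locally with Biopython 1.88.

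The test was limma 3.58.1 (R 4.3.3) applied to log2(FPKM + 1) with a mean-variance trend, over the 12144 genes whose mean reached 1 FPKM, genotype the only term, two-sided, Benjamini-Hochberg threshold 0.05. The test was also run on simulated data with larger changes than those of the mitochondrial genes, which does not measure power for small changes. The members, lists and named genes (all chrMT rows, up to 4 genes of smallest p per list, and Aim2) were chosen with earlier results of these data known. Acta1, Ckm, Myh4, Myh7, Atp2a2, Ucp1 and Krt13 were named from the fixed marker lists outside that rule. Alternatives were other pseudocounts (0.1, 0.5), filters, scalings, variance models, limma's voom on recovered reads, a muscle covariate, the replicate number as a block and leaving out each library. The planned rRNA ratios could not be computed, since the table used here has 0 rRNA rows on chrMT.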

Additional observations from a re-analysis of the deposited data

How the results depend on the processing

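None of the 12 tested mitochondrial genes passed under any of the alternatives run, and their median log2 difference ranged from -0.28 to 0.01. The standard errors from limma also draw on genes of similar level. Without the mean-variance trend those of mt-Co1, mt-Nd1 and mt-Cytb fell from 0.35, 0.28 and 0.29 to 0.16, 0.14 and 0.17. That of mt-Co2 stayed at 0.14. With no expression filter that of mt-Co1 was 1.22. With array quality weights the sign turned for mt-Nd1 (0.026), mt-Nd2 (0.093), mt-Co1 (0.078), mt-Co3 (0.021) and mt-Nd5 (0.11). Leaving out each library in turn moved the difference from -0.29 to 0.085 for mt-Nd2, from -0.23 to 0.042 for mt-Co1, from -0.28 to 0.062 for mt-Co3 and from -0.31 to 0.081 for mt-Nd5, the positive values all without Aim2 KO replicate 1. It moved that of mt-Nd4l from -0.069, without wild type replicate 1, to 0.18. Adjusted p over the alternatives ran from 0.482 to 1.00. With the quality weights 7 genes of the pathway and marker lists passed, all leukocyte markers, where 0 passed otherwise, and over all genes 68 passed with them and 14 without Aim2 KO replicate 1, where 1 passed in the reported fit. The cause was not tested. Leaving out each library moved the difference in the share of mitochondrial reads from -0.90 to 0.08 percentage points and that of the mt-Nd6 to mt-Nd5 ratio from -0.137 to -0.0294. Same-numbered libraries deviated together with correlations of 0.351, 0.458 and 0.0302. Aim2 KO replicates 1 and 2 correlated best with their own number in wild type, and replicate 3 with wild type replicate 2 (0.213). The match did not hold for each number, so the numbers were not taken to pair the libraries. The replicate block called 0 of 12 mitochondrial genes (median -0.16), and 0 genes overall where 1 was called without it. Scalings moved the median of all genes by less than 0.1. The rRNA alternatives were not run, since no rRNA row is on chrMT here. How reads matching a nuclear copy were counted is not given, so the levels of the genes with a copy are uncertain. The cause of the low level of mt-Atp8 was not tested.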
